A study of Mus musculus with 9 samples.

Results

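Prostaglandins are made and sensed by a small set of genes, and 10 of them were followed here through 9 mouse neuroblastoma tumors. The 10 genes were 6 receptors (Ptgfr, Ptger1, Ptger2, Ptger3, Ptger4 and Ptgir) and 4 synthesis genes (Ptgs1, Ptgs2, Ptges and Ptgds), picked by symbol from the 54429 symbols of the count table. All 10 were found. Ptgfr had been picked because it was low in the tumors given the drugs, so its levels are described below without a test, whereas the other 9 genes were examined for what they did beside it.

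The tumors grew from NB9464 cells, a line from a mouse model in which the tyrosine hydroxylase promoter drives the neuroblastoma oncogene MYCN. In every group the cells had been placed under the skin of wild-type C57BL/6 mice, and treatment started at a tumor volume of 250 mm3. Vehicle mice (3 tumors) received no active agent. R788 + anti-PDL1 mice (3 tumors) received R788 (fostamatinib), an oral inhibitor of the kinase Syk, at 50 mg/kg, with an antibody against the checkpoint ligand PDL1. Rad + R788 + anti-PDL1 mice (3 tumors) received both of these and 10 Gy of radiation. Radiation, R788 and the antibody were not given singly in these 9 samples, so their separate effects cannot be told apart. The comparisons addressed what the drugs did to large tumors, and what radiation added.

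Prostanoid synthesis starts when phospholipases free arachidonic acid from membranes. The cyclooxygenases, COX-1 (Ptgs1) and COX-2 (Ptgs2), turn it into prostaglandin H2, and terminal synthases then make prostaglandin E2, D2, F2 alpha, prostacyclin or thromboxane from that intermediate. Each product acts on its own G protein-coupled receptors. Some of these receptors raise calcium through Gq and others raise or lower cyclic AMP. In tumors, prostaglandin E2 made through COX-2 is best known for restraining T cells and dendritic cells through the EP2 and EP4 receptors.

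Against Vehicle, Ptgfr RNA was 14.5-fold lower in R788 + anti-PDL1 tumors and 3.01-fold lower after the addition of radiation. Ptger1, Ptger4 and Ptgir did not lie below Vehicle in all tumors of a treated group. Of all genes tested, 16.5% did so in R788 + anti-PDL1 and 11.2% in the irradiated group. Ptger2 and Ptger3 had 0 counts in the second Vehicle tumor and so could not lie below it. Outside the chosen genes, the sparsely counted receptor Ptgdr2 lay below Vehicle in all R788 + anti-PDL1 tumors in scaled CPM, but its raw counts overlapped. Ptger4 (EP4 receptor) and Ptgs1 (COX-1) lay above Vehicle in all 6 treated tumors, at group means 2.87 to 4.18-fold higher. Among all genes tested, 13.6% lay wholly above Vehicle in R788 + anti-PDL1 and 9.27% in the irradiated group. Ptgs2 (COX-2) averaged 2.83 and 2.77-fold lower in the treated groups, but 1 Vehicle tumor was as low as they were. None of the 7 members tested beside Ptgfr passed the adjusted threshold of 0.05 in edgeR in any of the 3 comparisons, where 0.678%, 0.0439% and 0.00628% of all genes tested did.

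Total counts were 18276683 to 23397886 per library. Levels are CPM, a gene's counts relative to the library total after scaling by the TMM method, and 3 counts, the most that a count of 0 allows, corresponded to 0.115 to 0.221 CPM. The first tumor of the Rad + R788 + anti-PDL1 group stood apart, with Pearson r of 0.865 to 0.907 to the other 8 libraries across genes (0.937 to 0.98 among those 8). For some genes in which it was the extreme tumor, the differences are therefore also given without it. Noradrenergic markers were mixed. Th had 0 counts in all 9 libraries, although Hand2 had 6545 to 12901. The material was bulk tumor, in which fewer cells of a type and less RNA per cell cannot be told apart. The labels give separate tumors but not how they were grouped by cage or day, and p-values measure only the spread between these samples. An exact permutation test of 3 against 3 cannot give a p below 0.1.

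**Figure D1:**
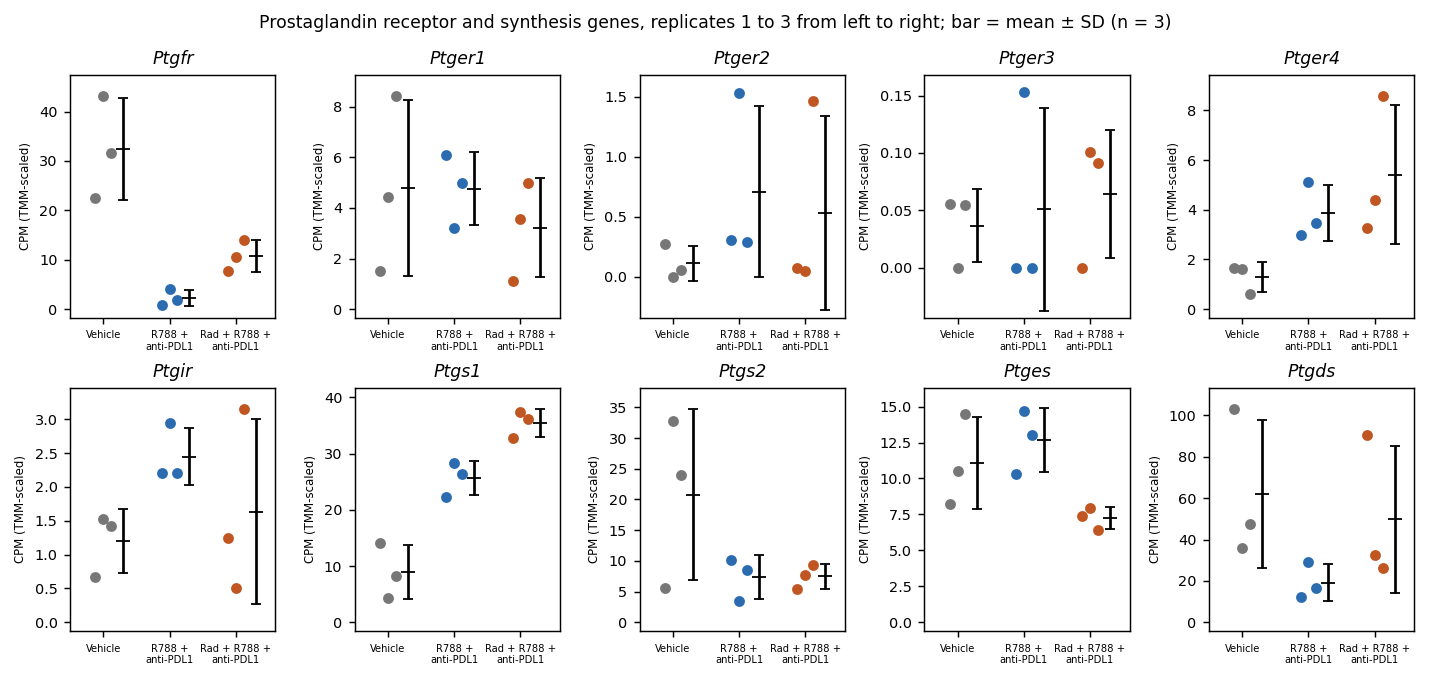
TMM-scaled CPM (y axis, a separate linear scale for each gene) of the 10 genes in the 3 groups, with a point per tumor and the mean ± SD (n = 3) beside it. Ptgfr separates the 3 groups, Ptgs1 is ordered from Vehicle up to the irradiated group without overlap, and Ptger2 and Ptger3 sit near 0.

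Ptgfr encodes the FP receptor for prostaglandin F2 alpha, which raises calcium and contracts smooth muscle. It was counted 406, 963 and 579 times in Vehicle tumors 1 to 3, that is 22.4, 43.2 and 31.7 CPM. In the R788 + anti-PDL1 tumors it was counted 18, 106 and 45 times (0.794, 4.05 and 1.84 CPM). In the irradiated tumors it was counted 104, 208 and 307 times (7.67, 10.6 and 14.0 CPM). The 3 groups did not overlap at any point, with Vehicle highest, the irradiated group between and R788 + anti-PDL1 lowest. Group means were 32.5 ± 10.4, 2.23 ± 1.66 and 10.7 ± 3.18 CPM (SD, n = 3). The fitted log2 difference from Vehicle was -3.85 for R788 + anti-PDL1 and -1.59 for the irradiated group, and the irradiated group stood 2.26 above R788 + anti-PDL1. Without the first irradiated tumor, that group's log2 difference was -1.37 from Vehicle and 2.45 from R788 + anti-PDL1. These values are the reason for the gene's selection, so no test is attached to them. Ptgfr (ENSMUSG00000028036.6) lies on the minus strand of chromosome 3 at 151796502 to 151837630 (GRCm38), and an antisense gene, Gm43618, shares 4.85% of its exon bases. The strandedness of the libraries was not given in the sources used here, so reads from that stretch could belong to either gene.

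Of the EP receptors, which bind prostaglandin E2, Ptger4 was the member with the clearest separation. EP4 raises cyclic AMP, and its gene (ENSMUSG00000039942.15) lies on the minus strand of chromosome 15 at 5206661 to 5244187. Ptger4 was counted 30, 36 and 11 times in the Vehicle tumors (1.66, 1.62 and 0.603 CPM). The R788 + anti-PDL1 tumors held 68, 134 and 85 counts (3.0, 5.12 and 3.48 CPM), and the irradiated tumors held 44, 87 and 188 (3.25, 4.41 and 8.59 CPM). All 6 treated tumors lay above all 3 Vehicle tumors. The log2 fold change was 1.58 ± 0.53 (SE) for R788 + anti-PDL1 and 2.06 ± 0.53 for the irradiated group, or 2.98 and 4.18-fold. The edgeR quasi-likelihood p was 0.0144 and 0.00344 before adjustment and 0.26 and 0.219 after Benjamini-Hochberg adjustment over all genes tested. DESeq2 put both past the threshold, with adjusted p of 0.0491 and 0.00541. Over all 18 alternatives the adjusted p ran from 0.00525 to 0.666 and from 0.00501 to 0.688. Between the treated groups the difference was 0.49 ± 0.51 (95% interval -0.65 to 1.62), within the spread of the tumors. Ptger4 shares 15.3% of its exon bases with the antisense gene Gm15937, which had 0 counts in every library.

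Ptgir encodes the IP receptor for prostacyclin, which also raises cyclic AMP. It gave 0.663, 1.53 and 1.42 CPM in Vehicle and 2.2, 2.94 and 2.21 CPM in R788 + anti-PDL1 tumors. Those groups did not overlap. The irradiated tumors, at 1.25, 0.507 and 3.15 CPM, spanned the whole range of the other 6. The log2 fold changes of 1.02 ± 0.64 and 0.45 ± 0.65 against Vehicle had edgeR adjusted p of 0.621 and 0.741.

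Ptger1 encodes EP1, a calcium-raising receptor. Its Vehicle tumors alone ran from 1.49 to 8.44 CPM, wider than the 3.21 to 6.08 CPM of R788 + anti-PDL1 and the 1.11 to 4.98 CPM of the irradiated tumors. The difference between R788 + anti-PDL1 and Vehicle was -0.01 ± 0.67 in log2 (95% interval -1.5 to 1.48). A difference in either direction of more than 2-fold therefore lies within the interval. The Ptger1 counts, 15 to 154 per library, are uncertain because the strandedness of the libraries was not given.

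Ptger2 (EP2, raising cyclic AMP) and Ptger3 (EP3, lowering it) did not pass the filter on low counts and were not tested. Ptger2 was counted 5, 0 and 1 times in Vehicle, 7, 40 and 7 times in R788 + anti-PDL1, and 1, 1 and 32 times in the irradiated tumors. A single tumor of each treated group held most of its group's Ptger2 counts. Ptger3 never exceeded 4 counts. At this depth no difference in Ptger3 was detectable.

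The 3 prostanoid receptors outside the chosen genes were Tbxa2r, Ptgdr and Ptgdr2. Tbxa2r, the thromboxane receptor, gave 2.69 to 5.37 CPM in Vehicle, 2.03 to 4.4 in R788 + anti-PDL1 and 3.96 to 6.12 in the irradiated tumors, which overlapped in every pairing. Ptgdr, the DP1 receptor for prostaglandin D2, had 0 counts throughout. Ptgdr2, the second prostaglandin D2 receptor, gave at most 0.718 CPM in any tumor, and its log2 difference of -1.14 ± 0.7 between R788 + anti-PDL1 and Vehicle had an adjusted p of 0.61 in edgeR. Its R788 + anti-PDL1 tumors (0.0764 to 0.328 CPM) all lay below Vehicle (0.329 to 0.718 CPM), by a narrow margin. The raw counts, 7, 2 and 8 against 13, 12 and 6 in Vehicle, overlapped.

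Levels of different receptors were compared as CPM per kb of merged exon. On that scale Ptgfr was the leading receptor in Vehicle tumors, with 49.4%, 67.1% and 48.3% of the summed RNA of all 9 prostanoid receptors. Its share was 3.27%, 10.9% and 6.72% in R788 + anti-PDL1 and 20.6%, 29.2% and 26.6% in the irradiated tumors. Summed over all 9 receptors, the level was 8.63 ± 1.68 CPM per kb in Vehicle, 4.37 ± 0.99 in R788 + anti-PDL1 and 6.20 ± 1.37 in the irradiated group (SD, n = 3). Without Ptgfr the sum of the other 8 was 3.84 ± 1.02, 4.04 ± 0.746 and 4.61 ± 0.998 CPM per kb, so these sums differed between groups by less than 1 SD. Because Ptgfr enters the shares and was chosen for its level, the shares are a description.

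The same sums can be grouped by how the receptors signal. Receptors that raise calcium (Ptgfr, Ptger1 and Tbxa2r) held 90.7 ± 2.43% of the receptor RNA in Vehicle, 64.6 ± 1.49% in R788 + anti-PDL1 and 76.0 ± 9.37% in the irradiated tumors. Receptors that raise cyclic AMP (Ptger2, Ptger4, Ptgir and Ptgdr) held 6.77 ± 1.14%, 33.0 ± 2.43% and 21.3 ± 9.59%. Ptgfr, chosen for its low level after the drugs, is in the calcium group and in the summed RNA. Its smaller share by itself lowers the calcium percentages and raises those of the other receptors, Ptger4 among them. The CPM of Ptger4 and Ptgir given above do not depend on that share. Whether the balance of the signalling groups differed apart from Ptgfr was not tested. Ptger4 alone held 2.41 ± 1.4% of the receptor RNA in Vehicle, 13.2 ± 0.761% in R788 + anti-PDL1 and 12.7 ± 3.85% in the irradiated group. By the length of the longest transcript instead of merged exons, these Ptger4 shares were 4.04%, 20.2% and 19.7%.

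**Figure D2:**
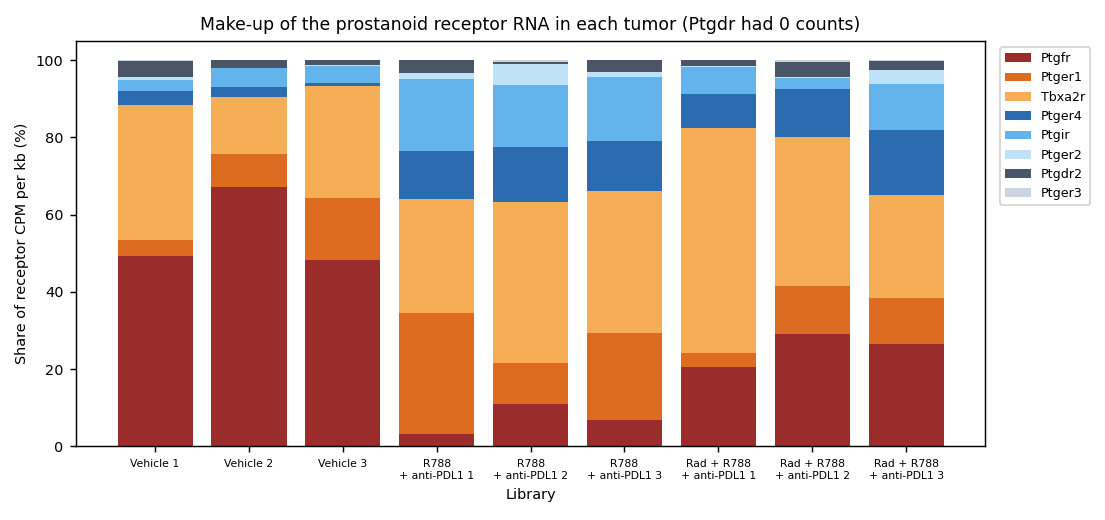
Stacked bars give the percentage of summed prostanoid receptor RNA (CPM per kb) that each receptor held in each of the 9 tumors (x axis). Ptgfr (dark red) fills 48.3% to 67.1% of the Vehicle bars and 3.27% to 10.9% of the R788 + anti-PDL1 bars, while Ptger4 and Ptgir (blues) are wider in the latter. A smaller Ptgfr share by itself widens the others.

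Of the cyclooxygenases, Ptgs1 encodes COX-1, the form that many cells make constantly. The gene (ENSMUSG00000047250.13) lies on the plus strand of chromosome 2 at 36230426 to 36252272. It gave 14.1, 4.4 and 8.33 CPM in Vehicle (255, 98 and 152 counts). The R788 + anti-PDL1 tumors gave 22.3, 28.3 and 26.3 CPM and the irradiated tumors 32.8, 37.5 and 36.1 CPM. The 3 groups did not overlap. Vehicle was lowest and the irradiated tumors highest. The log2 fold change was 1.52 ± 0.36 for R788 + anti-PDL1 and 1.99 ± 0.37 for the irradiated group against Vehicle. In edgeR the p of 0.00202 and 0.000346 became 0.107 and 0.0977 after adjustment, short of the threshold. DESeq2 gave adjusted p of 0.00243 and 3.26e-05 for the same differences. Without the first irradiated tumor, edgeR gave 1.54 (adjusted p = 0.0432) and 2.07 (adjusted p = 0.07). Over the alternatives tried, Ptgs1 passed the threshold in 5 of 18 for R788 + anti-PDL1 (adjusted p from 0.000237 to 0.409) and in 4 of 18 for the irradiated group (3.26e-05 to 0.504). Irradiated tumors stood 0.47 ± 0.35 above R788 + anti-PDL1 on the log2 scale (adjusted p = 0.465 in edgeR, 95% interval -0.32 to 1.26).

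Ptgs2 encodes COX-2, the form induced by cytokines, growth factors and tumor promoters. The gene (ENSMUSG00000032487.8) lies on the plus strand of chromosome 1 at 150100031 to 150108227. The Vehicle tumors were far apart, at 5.52, 32.8 and 24.0 CPM (100, 731 and 438 counts). R788 + anti-PDL1 tumors gave 10.2, 3.4 and 8.48 CPM and irradiated tumors 5.38, 7.66 and 9.41 CPM. The first Vehicle tumor lay inside the range of the treated tumors and the other 2 lay above all 6 of them. The log2 differences were -1.50 ± 0.61 and -1.47 ± 0.61, with edgeR p of 0.0355 and 0.0387 and adjusted p of 0.38 and 0.357. The treated groups differed by 0.03 ± 0.6 (95% interval -1.33 to 1.39).

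The balance of the COX genes differed from tumor to tumor. The Ptgs1 to Ptgs2 ratio of counts, computed after the values had been seen and given as a description, was 2.55, 0.134 and 0.347 in Vehicle. It was 2.19, 8.33 and 3.1 in R788 + anti-PDL1 and 6.1, 4.9 and 3.84 in the irradiated tumors. Ptgs2 counts exceeded Ptgs1 counts in Vehicle tumors 2 and 3 and in no treated tumor. The first Vehicle tumor, with a ratio of 2.55, lay inside the range of the R788 + anti-PDL1 tumors.

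**Figure D3:**
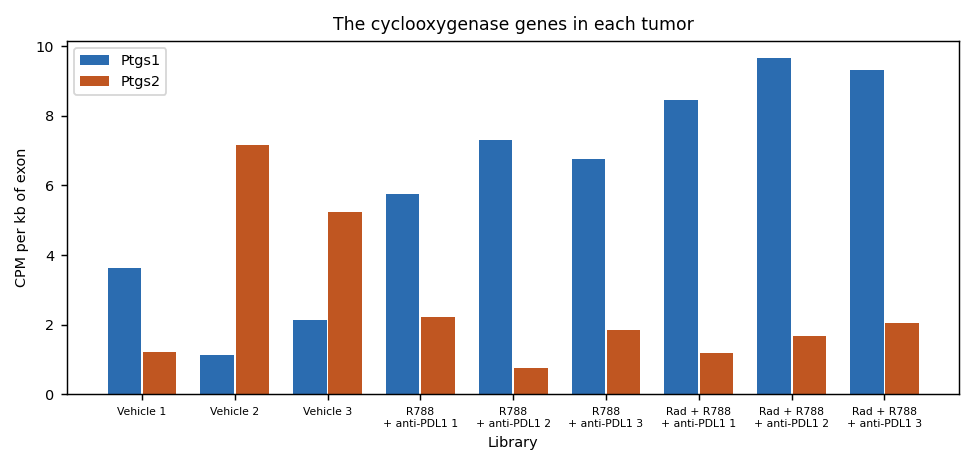
Bars give Ptgs1 (blue) and Ptgs2 (orange) as CPM per kb of merged exon in each tumor, on a linear axis from 0. Ptgs1 stands at 1.13 to 3.62 in Vehicle and 5.74 to 9.67 in the treated tumors, and Ptgs2 is the taller bar in Vehicle tumors 2 and 3 only.

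The promoters of the 3 genes with the widest separation or the most opposed values are printed to show how their sequences differ. They come from RefSeq (GRCm38.p6) and run 250 bases before to 50 bases after the annotated start, 5′ to 3′ on the gene's strand. Capitals mark matches to 5 motifs searched on both strands: the E-box CACGTG, the TATA box TATAAA, the core of the cyclic AMP response element TGACGT, the GC box GGGCGG and the AP-1 site TGACTCA.
Ptgfr (chr3:151837479-151837778, minus strand): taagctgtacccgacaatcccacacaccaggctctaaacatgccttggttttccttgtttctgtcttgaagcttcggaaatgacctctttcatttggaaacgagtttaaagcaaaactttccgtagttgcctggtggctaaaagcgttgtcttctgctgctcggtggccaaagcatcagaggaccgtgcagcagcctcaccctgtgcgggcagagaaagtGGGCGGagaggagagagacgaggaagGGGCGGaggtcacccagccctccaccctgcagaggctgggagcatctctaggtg
Ptgs1 (chr2:36230176-36230475, plus strand): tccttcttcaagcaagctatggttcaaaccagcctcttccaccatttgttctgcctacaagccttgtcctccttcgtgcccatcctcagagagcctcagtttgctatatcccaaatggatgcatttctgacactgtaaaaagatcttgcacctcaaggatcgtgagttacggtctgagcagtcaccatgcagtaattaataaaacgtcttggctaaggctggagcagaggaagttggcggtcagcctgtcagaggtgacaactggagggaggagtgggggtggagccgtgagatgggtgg
Ptgs2 (chr1:150099781-150100080, plus strand): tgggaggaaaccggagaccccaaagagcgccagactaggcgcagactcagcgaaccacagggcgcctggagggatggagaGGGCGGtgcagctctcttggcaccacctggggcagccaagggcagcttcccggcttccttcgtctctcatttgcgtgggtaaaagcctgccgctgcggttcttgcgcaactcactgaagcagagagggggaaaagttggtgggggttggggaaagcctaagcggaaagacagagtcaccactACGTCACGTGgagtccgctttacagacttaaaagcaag
Ptgfr held 2 GC boxes, Ptgs1 held none of the 5 motifs, and Ptgs2 held a GC box before the start and, just after it, an E-box that overlaps a cyclic AMP response element core. Among 32851 windows of the same length, 35.7% held a GC box, 7.15% an E-box, 7.51% the cyclic AMP element core, 13.6% a TATA box and 5.2% an AP-1 site. Of the 10 genes 9 had a promoter entry. Ptger4 (4 GC boxes), Ptger3 (3), Ptgir (2) and Ptges (2) also held GC boxes, Ptgds held an AP-1 site and Ptger2 held no match. These are matches of letters and describe the sequences only.

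Ptges encodes microsomal prostaglandin E synthase, the inducible terminal enzyme that works with COX-2. It gave 8.23, 10.5 and 14.5 CPM in Vehicle, 10.3, 14.7 and 13.0 in R788 + anti-PDL1, and 7.38, 7.92 and 6.44 in the irradiated tumors. The irradiated tumors were below all of the other 6. The log2 difference was -0.61 ± 0.28 from Vehicle (adjusted p = 0.385 in edgeR) and -0.80 ± 0.28 from R788 + anti-PDL1 (adjusted p = 0.227). Without the first irradiated tumor these were -0.60 and -0.81. Between R788 + anti-PDL1 and Vehicle the difference was 0.19 ± 0.28 (95% interval -0.44 to 0.82).

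Ptgds encodes the lipocalin-type prostaglandin D synthase, known from meninges and other mesenchymal cells. It gave 103, 36.1 and 47.5 CPM in Vehicle, 12, 29.1 and 16.4 in R788 + anti-PDL1, and 90.6, 32.5 and 26.3 in the irradiated tumors. R788 + anti-PDL1 lay below Vehicle in all tumors, with a log2 difference of -1.70 ± 0.57 (adjusted p = 0.263 in edgeR). Without the first Vehicle tumor, at 103 CPM, the difference was -1.10 (adjusted p = 0.599), and over all alternatives the adjusted p ran from 0.000958 to 0.692. The first irradiated tumor alone was high in its group. With it, the irradiated group was 0.33 below Vehicle and 1.37 above R788 + anti-PDL1 on the log2 scale (adjusted p of 0.783 and 0.254), and without it the values were -1.06 and 0.62 (adjusted p of 0.329 and 0.555). Over all alternatives the adjusted p of the irradiated group's differences ran from 0.143 to 0.986 and from 0.051 to 0.555.

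Per kb of exon, Ptgds was the most abundant of the 10 genes in every group, at 37.8 ± 21.8, 11.6 ± 5.37 and 30.2 ± 21.5 CPM per kb in Vehicle, R788 + anti-PDL1 and irradiated tumors. In Vehicle, Ptgfr (4.79 ± 1.54), Ptgs2 (4.54 ± 3.04), Ptges (2.82 ± 0.804) and Ptgs1 (2.30 ± 1.25) followed, and each of these overlapped its neighbours. In R788 + anti-PDL1 the order was Ptgs1 (6.60 ± 0.788), Ptges (3.22 ± 0.565), Ptgs2 (1.61 ± 0.771), Ptger1 (0.873 ± 0.266), Ptgir (0.736 ± 0.127), Ptger4 (0.582 ± 0.167) and Ptgfr (0.329 ± 0.245 CPM per kb). Ptgfr thus stood second of the 10 in Vehicle and eighth in R788 + anti-PDL1. In irradiated tumors Ptgs1 (9.14 ± 0.624) led Ptges (1.84 ± 0.19), Ptgs2 (1.63 ± 0.441) and Ptgfr (1.59 ± 0.469 CPM per kb), and the last 3 of these overlapped.

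**Figure D4:**
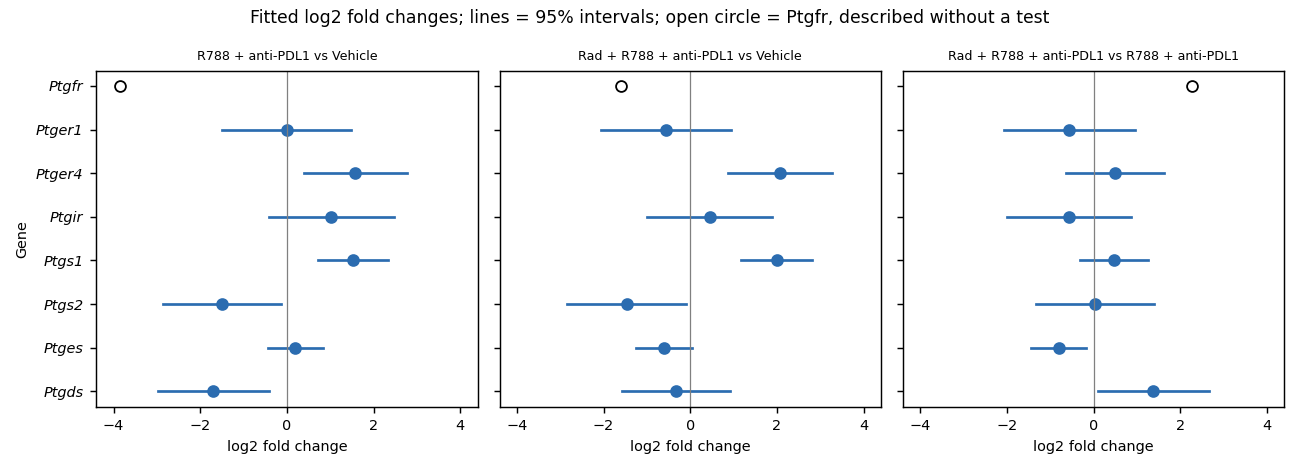
Fitted log2 fold changes (x axis) of the 8 genes that passed the low-count filter in the 3 comparisons, with lines for 95% intervals from edgeR and an open circle without an interval for Ptgfr. Intervals of Ptger4, Ptgs1 and Ptgs2 lie clear of 0 in both comparisons with Vehicle, before any adjustment for the number of genes tested.

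Counted together, none of the 7 tested members other than Ptgfr was called at an adjusted p under 0.05 for R788 + anti-PDL1 against Vehicle, where edgeR called 0.678% of all 15931 genes. At an unadjusted p under 0.05 there were 4 of 7 (Ptger4 and Ptgs1 higher, Ptgs2 and Ptgds lower), against 11.7% of all genes. DESeq2 called 2 (Ptger4 and Ptgs1), limma-voom 0 and limma-voom with sample quality weights 4. Groups did not overlap for 4 of 7, with Ptger4, Ptgir and Ptgs1 higher and Ptgds lower, against 30.1% of all genes (13.6% higher and 16.5% lower). The median log2 fold change of the 7 was 0.19, and that of all genes was -0.02.

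For the irradiated group against Vehicle edgeR called 0 of 7, against 0.0439% of all genes, and 3 of 7 had an unadjusted p under 0.05 (Ptger4, Ptgs1 and Ptgs2), against 13.2%. DESeq2 again called Ptger4 and Ptgs1, limma-voom called 0 and its version with quality weights 2. Groups were apart for 3 of 7 (Ptger4 and Ptgs1 higher, Ptges lower), against 20.5% of all genes (9.27% higher and 11.2% lower). Between the treated groups edgeR called 0 of 7, against 0.00628% of all genes. Here 2 of 7 had an unadjusted p under 0.05 (Ptges lower and Ptgds higher), against 18.4%, and DESeq2 and limma-voom called 0. Groups were apart for Ptgs1 (higher) and Ptges (lower), against 27.4% of all genes (14.2% higher and 13.2% lower). The 3 comparisons share tumors, and so do not count as separate evidence.

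The rest of the pathway was followed with 66 further genes, of which 58 passed the low-count filter. For R788 + anti-PDL1 against Vehicle edgeR called 1 of the 58, against 0.678% of all genes. This was Gnas, which encodes the Gs alpha subunit that couples EP2, EP4, DP1 and IP receptors to adenylyl cyclase. Gnas gave 2010, 2040 and 2040 CPM in Vehicle, 717, 1020 and 748 in R788 + anti-PDL1 and 1320, 1530 and 1360 in the irradiated tumors. It fell by 1.29 ± 0.22 on the log2 scale in R788 + anti-PDL1 (adjusted p = 0.0408 in edgeR). The 3 groups did not overlap. DESeq2 and limma-voom called it too. In edgeR the call was lost with upper-quartile normalization or when any tumor but the first irradiated one was left out. Gnas is an imprinted locus with overlapping transcripts, and the table sums them under 1 symbol. For the irradiated group the log2 difference from Vehicle was -0.53 ± 0.22 (adjusted p = 0.355).

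A list of genes known to respond to cyclic AMP held 10, and edgeR called 0 of them in each comparison. For R788 + anti-PDL1 against Vehicle, 4 of 10 had an unadjusted p under 0.05, against 11.7% of all genes, with Crem (-1.21 ± 0.26, adjusted p = 0.0838), Nr4a1 (-1.54 ± 0.4, adjusted p = 0.138) and Per1 (-0.70 ± 0.28, adjusted p = 0.361) lower and Pde4d (1.30 ± 0.44, adjusted p = 0.277) higher. Crem, a cyclic AMP-inducible transcription factor, gave 11.9, 16.8 and 15.6 CPM in Vehicle against 6.7, 6.34 and 6.11 in R788 + anti-PDL1 and 11.1, 7.36 and 9.27 in the irradiated tumors. Its treated tumors were all below Vehicle. Without the first irradiated tumor, edgeR called Crem (log2 difference -1.18, adjusted p = 0.021). Nr4a1, an immediate early nuclear receptor, gave 19.6, 71.0 and 55.5 CPM in Vehicle and 14.8, 19.6 and 15.9 in R788 + anti-PDL1. Without the first Vehicle tumor, the lowest of its group, edgeR called it (-1.89, adjusted p = 0.0269). DESeq2 called both Crem and Nr4a1 in this comparison (adjusted p of 0.000421 and 0.0125). For the irradiated group against Vehicle, 2 of 10 had an unadjusted p under 0.05, Crem lower and Areg higher, against 13.2% of all genes. Between the treated groups, 4 of 10 had an unadjusted p under 0.05, against 18.4% of all genes, with Nr4a1 (0.99), Nr4a3 (1.27) and Areg (2.27) higher and Pde4d (-1.32) lower after radiation on the log2 scale, and edgeR adjusted p of 0.223 or more. Without the first irradiated tumor, the highest of its group for Areg and the lowest for Pde4d, these were 1.91 for Areg and -0.95 for Pde4d.

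Arachidonic acid release and its hydrolases differed gene by gene. Pla2g4a encodes cytosolic phospholipase A2, the main source of arachidonic acid for the cyclooxygenases. It gave 32.8, 26.9 and 29.2 CPM in Vehicle, 26.5, 22.2 and 26.4 in R788 + anti-PDL1 and 10.3, 17.0 and 20.3 in the irradiated tumors. The log2 difference of the irradiated group from Vehicle was -0.90 ± 0.26 (adjusted p = 0.256 in edgeR), and its lowest value was in the tumor that stood apart. Without that tumor it was -0.64 ± 0.17 (adjusted p = 0.145). Mgll encodes monoglyceride lipase, which also feeds the arachidonate pool. It gave 14.2 to 17.9 CPM in R788 + anti-PDL1 against 7.1 to 8.39 in Vehicle and 5.75 to 8.49 in the irradiated tumors, a log2 difference of 1.03 ± 0.25 from Vehicle (adjusted p = 0.11 in edgeR). DESeq2 called Mgll in that comparison. Faah, which hydrolyses anandamide, was at 1.09 ± 0.36 in the irradiated group against Vehicle (adjusted p = 0.293).

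Of the other terminal synthases, 10 of 11 found were tested and none was called in any comparison. Ptges3 (p23, a cochaperone with prostaglandin E synthase activity) gave 273 to 284 CPM in Vehicle and 182 to 223 in R788 + anti-PDL1, a log2 difference of -0.45 ± 0.18 (adjusted p = 0.36 in edgeR). Ptges2, the membrane-associated second synthase, gave 40.3 to 57.9 and 25.5 to 37.8 CPM (-0.61 ± 0.23, adjusted p = 0.322). The irradiated tumors overlapped Vehicle for both. Fam213b, a prostamide and prostaglandin F synthase that makes the ligand class of the FP receptor, was scarce, at 0.359 to 1.44 CPM in Vehicle, 1.38 to 3.81 in R788 + anti-PDL1 and 1.78 to 4.43 in the irradiated tumors. Its log2 differences of 1.52 ± 0.65 and 1.77 ± 0.65 had adjusted p of 0.4 and 0.327. Other enzymes able to form prostaglandin F2 alpha showed no difference beyond the tumors' spread in R788 + anti-PDL1, with Akr1b3 at -0.03 ± 0.51 and Akr1b8 at -0.17 ± 0.19, and Akr1c18 never exceeded 15 counts.

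Hpgds, the hematopoietic prostaglandin D synthase of mast cells and macrophages, gave 4.91, 1.12 and 3.78 CPM in Vehicle, 13.1, 3.59 and 7.71 in R788 + anti-PDL1 and 1.84, 2.54 and 16.6 in the irradiated tumors. Its adjusted p was 0.647 and 0.553 against Vehicle. Tbxas1 (thromboxane synthase) was at 0.88 ± 0.74 and 1.09 ± 0.74, Ptgis (prostacyclin synthase) at 0.11 ± 0.62 and 1.04 ± 0.62, Cbr3 at 1.24 ± 0.8 and 0.90 ± 0.81 on the log2 scale against Vehicle. Without the tumor that stood apart, the highest of its group for Ptgis, the irradiated difference of Ptgis from Vehicle was 0.44 ± 0.6. Cbr1 (carbonyl reductase, which converts prostaglandin E2 to F2 alpha) was at -0.23 ± 0.27 and 0.57 ± 0.28. The irradiated tumors exceeded R788 + anti-PDL1 for Cbr1 by 0.80 ± 0.28 (adjusted p = 0.225 in edgeR), with 112 CPM in the tumor that stood apart and 56.6 and 58.1 in the other irradiated tumors. Without the former the difference was 0.41 ± 0.15 (adjusted p = 0.238).

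Neither the transporters nor the breakdown enzymes were called. Slco2a1, the prostaglandin uptake carrier, was at 0.50 ± 0.61 and 0.70 ± 0.61 against Vehicle, and Abcc4, an exporter, at 0.28 ± 0.31 and -0.28 ± 0.31. Without the first irradiated tumor, the lowest of its group for both genes, the irradiated differences from Vehicle were 1.03 ± 0.62 and 0.06 ± 0.15. Hpgd, which oxidizes prostaglandins to inactive forms, gave 0.314 to 1.6 CPM in Vehicle and 1.95 to 2.66 in R788 + anti-PDL1 (log2 difference 1.27 ± 0.93, adjusted p = 0.686 in edgeR). Ptgr1, Ptgr2 and Zadh2, which reduce the products of Hpgd, were at -0.21 ± 0.37, -0.32 ± 0.18 and -0.38 ± 0.4 in R788 + anti-PDL1. For Ptgr1 the irradiated group stood 1.02 ± 0.37 above R788 + anti-PDL1 (adjusted p = 0.233 in edgeR), with 145 CPM in the tumor that stood apart and 57.6 and 50.3 in its companions. Without the former it was 0.38 ± 0.16 (adjusted p = 0.301). Ptgfrn, a membrane protein that binds the FP receptor, did not follow Ptgfr. It gave 206, 111 and 135 CPM in Vehicle, 299, 271 and 300 in R788 + anti-PDL1 and 173, 458 and 398 in the irradiated tumors, with log2 differences of 0.94 ± 0.36 and 1.19 ± 0.36 (adjusted p of 0.342 and 0.268 in edgeR). Without the first irradiated tumor, at 173 CPM, the differences were 0.96 ± 0.21 and 1.53 ± 0.23 (adjusted p of 0.0376 and 0.0381 in edgeR).

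The signalling proteins next to the receptors included the Gq pathway through which FP acts. In the irradiated group against Vehicle, Gnaq (-0.77 ± 0.27), Gna11 (-0.81 ± 0.36) and Plcb3 (-0.92 ± 0.26) were lower and Gna12 (0.41 ± 0.16) and Plcb2 (2.40 ± 0.69) higher, each with an unadjusted p under 0.05 and an edgeR adjusted p of 0.24 or more. The tumor that stood apart was the lowest of its group for Gnaq, Gna11 and Plcb3, at 20.1, 27.4 and 37.7 CPM. Without it the differences were -0.52 ± 0.21, -0.44 ± 0.19 and -0.63 ± 0.12 (adjusted p of 0.266, 0.29 and 0.0722 in edgeR). In R788 + anti-PDL1 against Vehicle, Plcb1 (1.07 ± 0.44), Plcb2 (1.79 ± 0.68) and Adcy7 (1.39 ± 0.61) had an unadjusted p under 0.05 and adjusted p of 0.342 or more. On the lipoxygenase branch, which uses the same fatty acid, Alox5 stood at 0.685 CPM in Vehicle, 2.97 in R788 + anti-PDL1 and 2.24 in the irradiated group, with log2 differences of 2.12 ± 0.69 and 1.71 ± 0.69 (adjusted p of 0.248 and 0.351 in edgeR). DESeq2 called the first of these (adjusted p = 0.0454).

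Over all 58 tested genes of the pathway, edgeR called 1 (lower), 0 and 0 for the drugs against Vehicle, for the irradiated group against Vehicle and for irradiation on top of the drugs, against 0.678%, 0.0439% and 0.00628% of all genes. Without the first irradiated tumor it called 6, 1 and 0, with Crem, Gnas, Mgll, Pde4d, Plcb3 and Ptgfrn in the first comparison and Ptgfrn in the second. At an unadjusted p under 0.05 there were 14 (8 higher, 6 lower), 13 (7 and 6) and 12 (7 and 5), and the shares of all genes were 11.7%, 13.2% and 18.4%. DESeq2 called 5, 4 and 2 of the 58, and limma-voom 1, 0 and 0. The median log2 fold change of the list was 0.08, 0.14 and 0.22, beside -0.02, 0.05 and 0.04 over all genes.

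**Figure D5:**
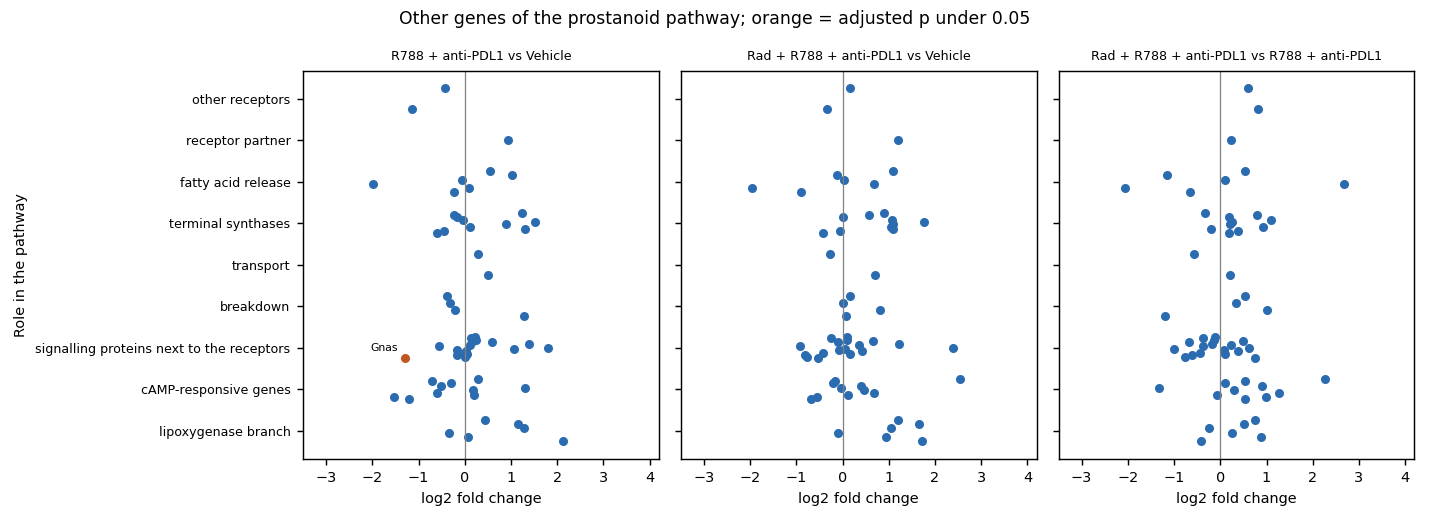
Each point is a tested pathway gene outside the 10, placed by its role (y axis) and its fitted log2 fold change (x axis) in each comparison. Points lie on both sides of 0 in most roles, and Gnas (orange, -1.29) is the gene with an adjusted p under 0.05.

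Across the 9 libraries, the 5 genes whose log2 CPM was most like that of Ptgfr, of 11640 candidates, were Rnf149 (Pearson r = 0.981), Nectin3 (0.978), Gnas (0.976), Nab2 (0.976) and Ets2 (0.976). The 9 points share 3 groups, and the values are a description. Each of the 5 showed the same order of group means as Ptgfr. Rnf149 averaged 88.1, 57.1 and 72.8 CPM and Ets2 averaged 164, 72.8 and 128 CPM in Vehicle, R788 + anti-PDL1 and irradiated tumors, far smaller ranges than that of Ptgfr. By Spearman rho 3 of the 5 names stayed, and without the tumor that stood apart 2 stayed. Among the members, r with Ptgfr was 0.67 for Ptgds, 0.47 for Ptgs2, -0.10 for Ptger1, -0.19 for Ptges, -0.40 for Ptgir, -0.45 for Ptger4 and -0.58 for Ptgs1.

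Markers of cells that could carry these genes moved with the groups in part. The 7 mast cell markers summed to 0.988 to 13.3 CPM in Vehicle, 52.1 to 79.3 in R788 + anti-PDL1 and 5.57 to 13.1 in the irradiated tumors. All 7 had an unadjusted p under 0.05 and no overlap between R788 + anti-PDL1 and Vehicle, against 11.7% and 30.1% of all genes. None passed the adjusted threshold in edgeR (lowest adjusted p = 0.0879). Ptgs1, Ptgir, Hpgds and Alox5 were also higher on average in R788 + anti-PDL1 than in Vehicle. In the irradiated tumors the mast cell sum overlapped Vehicle, and Ptgs1 was at its highest (32.8 to 37.5 CPM). There Hpgds (6.99), Alox5 (2.24) and Ptgir (1.64 CPM) averaged above Vehicle. For Hpgds (1.84, 2.54 and 16.6 CPM) and Ptgir (1.25, 0.507 and 3.15 CPM) the irradiated tumors overlapped Vehicle, and the third was the highest. The 6 neutrophil markers summed to 4.8, 13.1 and 11.1 CPM in Vehicle tumors 1 to 3, 3.4 to 4.75 in R788 + anti-PDL1 and 3.86 to 17.9 in the irradiated tumors. The first Vehicle tumor was the lowest of its group for this sum and for Ptgs2. Of these markers, S100a9 (-3.45 ± 0.74, adjusted p = 0.0832) and S100a8 (-3.0 ± 0.73, adjusted p = 0.11 in edgeR) had log2 differences between R788 + anti-PDL1 and Vehicle with an unadjusted p under 0.05. The other tested neutrophil markers were at -0.75 ± 1.03 (Csf3r), -1.35 ± 0.98 (Mmp8) and 0.32 ± 0.53 (Cxcr2) in that comparison. Csf3r alone gave 13.7 of the 17.9 CPM in irradiated tumor 3. The 10 macrophage markers summed to 324 to 693, 708 to 733 and 367 to 1880 CPM, with 1880 in irradiated tumor 3. That tumor was also highest for Ptger4 (8.59 CPM), Ptgir, Hpgds and Tbxas1 within its group. Its sums of T cell (34.3 CPM), B cell (3.2 CPM) and neutrophil markers (17.9 CPM) were likewise the highest of the group. Its mast cell sum (5.57 CPM) was the lowest. Which cells carried these genes in that tumor was not tested. The 5 platelet markers summed to 26.3 to 33.5, 18.9 to 25.6 and 17.1 to 73.8 CPM, and the 7 fibroblast markers to 3040 to 3840, 2920 to 5440 and 2560 to 4980 CPM. Endothelial markers gave 36.4 to 47.8, 45.8 to 121 and 49.3 to 62.9 CPM, with 121 in the R788 + anti-PDL1 tumor that also had the most Ptger2 and Ptger4 in its group. Pericyte and smooth muscle markers gave 237 to 255, 201 to 345 and 121 to 227 CPM. The part of these cells in the values of the 10 genes was not tested.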

How the data were processed

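RNA of 9 whole tumors was sequenced after polyA selection, and samples were grouped by their treatment labels. The authors aligned reads with STAR 2.6.1d to mm10 and quantified them with Salmon 1.4.0, per the submitters' processing notes. What the authors deposited were estimated counts for each gene symbol, as whole numbers and not normalized. The sources conflicted: the labels give whole tumor as tissue, yet their extraction protocol mentions macrophages, and a paired-end run where the paper's methods name single reads. Wrong assignment between overlapping genes could shift counts, since strandedness is not given in the sources used here.

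All genes were fitted together in edgeR 4.0.16 (R 4.3.3): filterByExpr with a minimum count of 10 left 15931 genes, TMM scaling, a robust quasi-likelihood F test (two-sided), 9 libraries with a coefficient per group, Benjamini-Hochberg adjustment and a threshold of 0.05. Log2 fold changes carry SE and 95% intervals. The code was tested on simulated data. Alternatives used DESeq2 1.42.0, limma 3.58.1 (voom, with and without quality weights), other normalizations and filters, fewer libraries and a replicate block. Correlations used log2 CPM with a prior count of 2. Identifiers, exon lengths and overlaps came from GENCODE M21 (GRCm38), promoters from RefSeq. Floors of 3 counts cover counting error only, as reads are not independent molecules.

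The members and gene lists were chosen with earlier results of these data known, the pathway and marker lists from general knowledge. The members, all other receptors, Ptgfrn, synthases, transport and breakdown genes were named whatever their values, and pathway genes of other roles where an unadjusted p was under 0.05. Of 69 pathway symbols 66 were in the table. Of 94 markers in 14 lists, 65 were tested and edgeR called 1, a noradrenergic marker higher in R788 + anti-PDL1 than in Vehicle, where it called 0.678% of all genes. Libraries were fitted without pairing, as the labels name none. Tumors with the same number deviated together at r of -0.0463 to 0.233, over 0.1 in 2 of 9 pairs. Tumors with different numbers did so at r of -0.225 to 0.123. These values do not settle whether tumors with the same number shared a cage or day. Some items are not reported here.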

Additional observations from a re-analysis of the deposited data

How the results depend on the processing

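Every fold change of Ptgfr, Ptger4 and Ptgs1 against Vehicle kept its direction under all 18 alternatives. Ptgfr ranged from -4.61 to -3.46 and from -1.83 to -1.33 on the log2 scale, Ptgs1 from 1.19 to 2.04 and from 1.66 to 2.49, and Ptger4 from 1.23 to 2.02 and from 1.56 to 2.79. The -4.61 of Ptgfr was without the second R788 + anti-PDL1 tumor. Ptger1 (-0.41 to 0.67) and Ptges (-0.02 to 0.43) for R788 + anti-PDL1, and Ptgir (-0.48 to 0.87) and Ptgds (-1.06 to 0.25) for the irradiated group, changed sign in some against Vehicle. Of 378 values of the 7 tested members, 16 passed the threshold, and none did with the opposite sign.

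Counts are given in the order R788 + anti-PDL1 against Vehicle, irradiated against Vehicle, and between the treated groups. Genes called went from 108, 7 and 1 to 770, 611 and 822 in DESeq2, to 4835, 1993 and 3080 in limma-voom with quality weights, to 199, 70 and 24 without the low-count filter, to 594, 1 and 0 with only the 6 libraries compared, and, for the last 2 comparisons, to 12 and 8 in limma-voom. Members called beside Ptgfr went from 0 to 2, 2 and 0 in DESeq2, to 4, 2 and 1 with quality weights, and to 1, 1 and 0 (Ptgs1) without the filter. Pathway genes called went from 1, 0 and 0 to 5, 4 and 2 in DESeq2 and to 25, 12 and 19 with quality weights. For the first comparison they went to 0 with upper-quartile normalization and to 5 with 6 libraries. The cause of these differences was not tested.

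With each tumor left out in turn, genes called ranged from 0 to 856, 1 to 57 and 0 to 21, with 856, 57 and 21 without the first irradiated tumor. Members called ranged from 0 to 1, 0 to 1 and 0 to 0, the 1 being Ptgs1 without the first Vehicle tumor (adjusted p = 0.0465 and 0.04) or, in the first comparison, without the first irradiated tumor. Pathway genes called ranged from 0 to 6, 0 to 1 and 0 to 0, with 6 and 1 (Ptgfrn) without the first irradiated tumor. Gnas was not called when any of Vehicle tumors 1 to 3, R788 + anti-PDL1 tumors 1 to 3 or irradiated tumors 2 and 3 was left out. Whether the replicate numbers mark pairs is not given in the labels. With the replicate block genes called were 0, 3 and 0, pathway genes 0 in the first comparison, and members 0. The mostly low counts of Ptger2, Ptger3 and Ptgdr2 limit what depth can show for them.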

Other observations

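On the lipoxygenase branch, which makes leukotrienes from the same fatty acid as the cyclooxygenases, 6 of 9 listed genes were tested and edgeR called 0 of them in each comparison. These genes were named after their values had been seen. Besides Alox5, Ltc4s (leukotriene C4 synthase) averaged 0.587 CPM in Vehicle, 1.44 in R788 + anti-PDL1 and 1.23 in the irradiated tumors. Cysltr1, a receptor for cysteinyl leukotrienes, averaged 1.28, 2.83 and 4.01 CPM, with 0.443, 1.27 and 10.3 CPM in irradiated tumors 1 to 3. Alox5ap, which presents arachidonic acid to 5-lipoxygenase, averaged 8.98, 9.43 and 17.4 CPM, and Lta4h, which makes leukotriene B4, averaged 95.8, 75.4 and 89.5 CPM. Irradiated tumors 1 to 3 gave 2.14, 0.304 and 1.23 CPM for Ltc4s and 23.9, 4.92 and 23.4 CPM for Alox5ap. The irradiated tumors overlapped Vehicle for Ltc4s, Cysltr1, Alox5ap and Lta4h. For Cysltr1, Alox5ap and Lta4h the R788 + anti-PDL1 tumors did so too. The lowest edgeR adjusted p for the branch was 0.248, for Alox5 in R788 + anti-PDL1 against Vehicle.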
